A study of Mus musculus with 12 samples.

Results

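Mouse embryonic stem (ES) cells differentiated for 8 days with the agent labelled BPA were compared with cells differentiated for the same 8 days without an agent. The comparison used 6 of the 12 arrays of the series, chosen by title: 3 BPA day8 arrays and 3 control day8 arrays. All cells were of the ES line D3. They were kept on mouse embryonic fibroblasts that had received MMC, and they differentiated in embryoid bodies, floating clumps of cells from which tissues of the germ layers arise. Control arrays carried no agent and the treated arrays carried BPA; the labels do not spell out the name BPA and give no dose, vehicle or exposure schedule. Every array was thus made from 1 cell line, and whether the replicates came from separate cultures is not given by the labels. The p-values therefore reflect the spread among these arrays alone, which may be technical. The remaining 6 arrays (3 control day0 arrays of undifferentiated cells and 3 NP day8 arrays of cells with another agent) entered the model that estimates the spread, and the day 0 arrays also serve below as a reference level.

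ES cells hold a network of transcription factors around Pou5f1, Sox2 and Nanog that keeps them undifferentiated. When they aggregate without the factors that maintain this state, the network is switched off, an outer layer of yolk sac endoderm forms, and mesoderm inside the aggregate yields beating heart muscle, vessels and connective tissue. Genes of the germ line are held silent in most embryonic cells by DNA methylation and by repressor complexes, and some of them are active at a low level in ES cells.

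Values are log2 signals, so a difference of 1 is a change of 2-fold, and errors of differences are standard errors from a limma model with 3 arrays a group. A gene is written as higher or lower, as risen or fallen, only where its Benjamini-Hochberg adjusted p over all 13067 genes tested was under 0.05. Levels of different genes are not compared with each other, since each probe set has its own brightness. A log2 signal of 3.41, the highest value of the 3 TrpnX bacterial control probe sets, served as the background level. Between 60.4% and 62.2% of probe sets lay above it on control day8 arrays and between 59.8% and 61.5% on BPA arrays. Defining markers of pluripotent cells were higher for 6 of 6 genes (mean log2 signal 10.60 to 10.77 on BPA arrays, 7.88 to 8.91 on control day8 arrays, 11.28 to 11.34 at day 0). Heart muscle markers were lower for 4 of 5 genes (5.001 to 5.99 with BPA, 7.93 to 8.89 without). Yolk sac endoderm markers ran from 9.58 to 9.89 with BPA and from 9.55 to 10.56 without, and the 6 of them were not called. On arrays of whole aggregates, fewer cells of a type and less RNA per cell cannot be told apart.

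Of the 13067 genes tested, 2906 (22.2%) differed between BPA and control at day 8. The calls ran in both directions, with 1569 genes higher (12%) and 1337 lower (10.2%) with BPA, and the median difference over all genes was 0.04. At least 2-fold changes were found for 602 of the higher and 597 of the lower genes, at least 4-fold for 180 and 176, and at least 8-fold for 62 and 54. Without control day8 replicate 1 the count of calls was 1822 (1033 higher, 789 lower), and without replicate 3 it was 2949 (1692 higher, 1257 lower). Control day8 replicate 3 correlated with the BPA arrays at 0.905 to 0.917, and replicates 1 and 2 at 0.879 to 0.902. The 3 arrays of a group lay entirely above or below the 3 of the other for 5441 genes (41.6%), of which 2551 were not called. Only 16 of the called genes overlapped, so a lack of overlap adds little to a call.

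**Figure D1:**
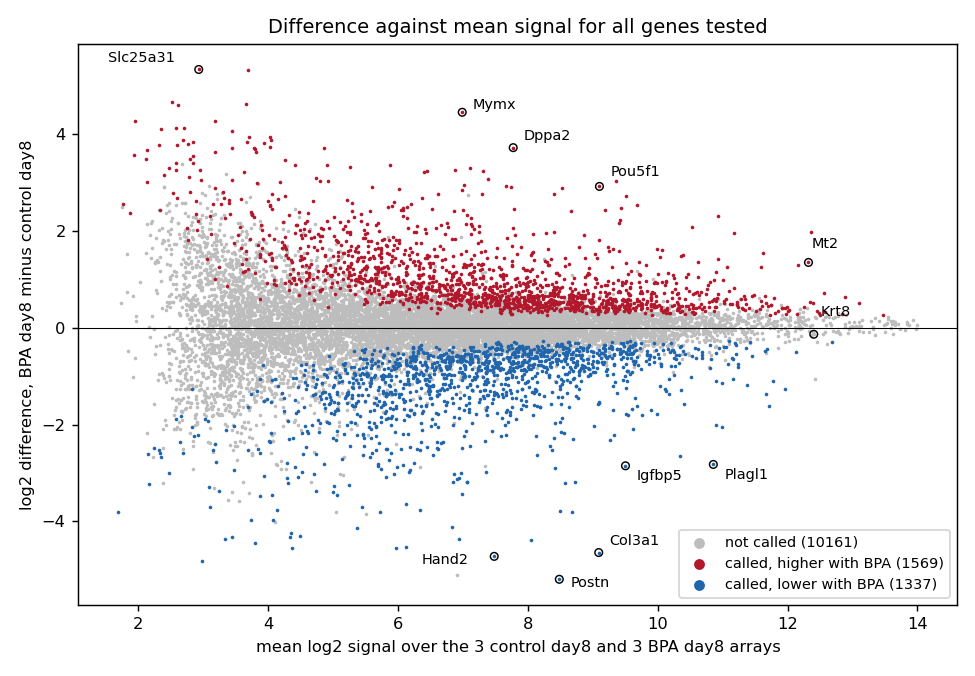
Log2 difference between BPA day8 and control day8 (vertical axis) against the mean log2 signal over both groups (horizontal axis), 1 point per gene tested, with genes called higher in red (1569) and lower in blue (1337). Circled genes are named; at low signal the spread of uncalled genes is wide, and Slc25a31 there has 2 of 3 control arrays under the background level.

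Set beside the day 0 arrays, the called genes fell into several kinds. Of the higher genes, 749 had a BPA mean above the means of both control groups, 663 lay between the control means and nearer to day 0, and 157 lay between them and nearer to control day 8. Of the lower genes, 506 had a BPA mean below both control means, 573 lay between them nearer to day 0 and 258 nearer to control day 8. These are positions of means, given as a description. Feeder fibroblast markers, given below, read higher at day 0 than at day 8. The share of feeder RNA in the day 0 levels was not tested. Of the called members, most pluripotency and heart factor genes lay between the control means, most germ cell genes above both and most matricellular and mesenchyme genes below both.

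Transcription factors of the naive pluripotent state were higher on BPA arrays for 15 of 21 genes tested, with a median difference of 1.21. Pou5f1, the factor at the centre of the network, read 6.81, 7.63 and 8.49 on the 3 control day8 arrays and 10.54, 10.59 and 10.55 on the BPA arrays, a difference of 2.92 ± 0.38 (adjusted p = 0.000998). Nanog read 7.29, 8.06 and 8.60 without and 10.20, 10.59 and 10.43 with BPA (2.42 ± 0.28, adjusted p = 0.000622). Nr0b1, a nuclear receptor bound to Pou5f1 in ES cells, had 3.65, 4.99 and 5.77 without and 8.05, 7.91 and 8.07 with BPA (3.20 ± 0.42, adjusted p = 0.00102). In all of these the BPA arrays lay close together and above every control day8 array, and control day8 replicate 1 was the lowest array. Klf4 (1.10 ± 0.14), Klf2 (2.41 ± 0.32), Esrrb (2.15 ± 0.20) and Tfcp2l1 (1.21 ± 0.11), which maintain the naive state, rose as well, and 13 of the 15 risen genes had BPA means nearer to day 0 than to control day 8. Genes of the list that were not called included Zfp281 (-0.01 ± 0.11), a factor of the exit from the naive state, and Tcf7l1 (-0.47 ± 0.20, adjusted p = 0.119), a repressor at pluripotency genes.

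Downstream and associated genes of the pluripotent state rose for 28 of 35 members, with a median difference of 1.93. Dppa2, a chromatin-bound protein of pluripotent cells, stood at 5.13, 6.08 and 6.54 on control day8 and 9.80, 9.52 and 9.57 on BPA arrays (3.72 ± 0.34, adjusted p = 0.000282). Fgf4, the growth factor through which ES cells prime themselves for differentiation, stood at 4.61, 5.84 and 6.61 without and 9.01, 8.97 and 8.79 with BPA (3.24 ± 0.39, adjusted p = 0.000754). Eras, a constitutively active Ras protein of ES cells (3.07 ± 0.26), Fbxo15, an F-box protein (2.87 ± 0.31), and L1td1, an RNA-binding protein (2.53 ± 0.24), rose too. For 7 of the 28 the BPA mean lay above both control means. Rhox5, an X-linked homeobox gene, was among these, at 9.88, 9.91 and 10.82 without and 12.17, 12.12 and 12.18 with BPA (1.95 ± 0.22) against a day 0 mean of 9.69, and so was Khdc3, a maternal-effect gene (2.76 ± 0.23, day 0 mean 6.54). Lin28a, an RNA-binding protein that blocks let-7 maturation (-0.36 ± 0.13), and Slc2a3, a glucose transporter (0.01 ± 0.15), were not called.

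**Figure D2:**
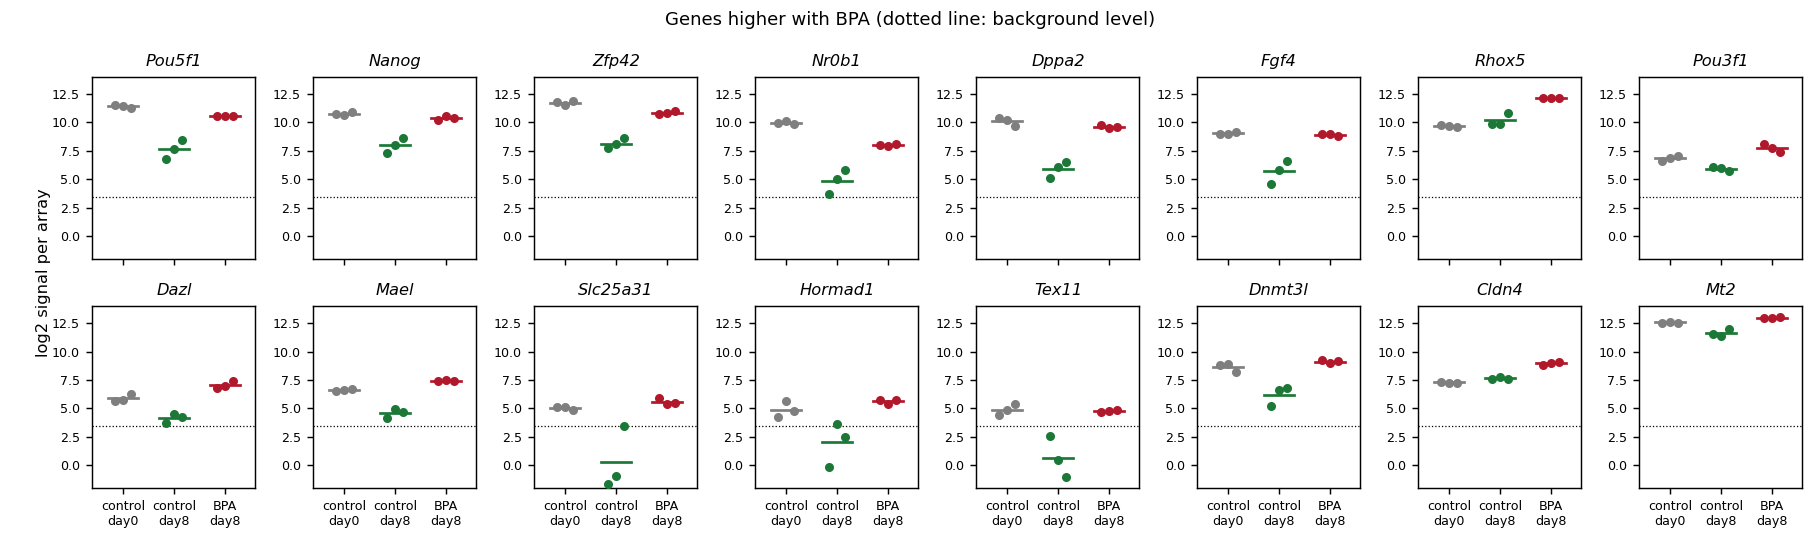
Log2 signal on each of 3 arrays a group (points, with the group mean as a bar) for 16 genes higher with BPA, at control day0 (grey), control day8 (green) and BPA day8 (red). Pluripotency genes with BPA lie near or below day 0, while Rhox5, Pou3f1, Dazl, Mael and Cldn4 lie above both control groups.

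Genes of the primed epiblast, the stage that follows naive pluripotency in the embryo, did not all move one way: 8 of 18 rose and 4 fell (median 0.76). Pou3f1, a POU factor of the primed state, read 6.07, 5.95 and 5.71 on control day8 and 8.06, 7.75 and 7.42 on BPA arrays (1.83 ± 0.23, adjusted p = 0.000953), and its BPA mean lay above that of day 0 (6.84). Fgf5, the classic marker of this stage (1.49 ± 0.30), Pim2, a survival kinase (1.78 ± 0.31), and Etv5, an ETS factor induced by FGF signals (1.44 ± 0.15), rose. Members that fell are also expressed in tissues formed later: Cdh2, or N-cadherin (-1.45 ± 0.28), Ncam1, a neural adhesion molecule (-1.55 ± 0.24), and Sox4 (-1.15 ± 0.19). Among genes of the primitive streak and nascent mesoderm 4 of 17 fell and 1 rose, with 7 lower after a pseudocount of 16 or 32 and with only the 6 compared arrays in the fit. The called share was 29.4%, beside 22.2% of all genes. Aplnr, the apelin receptor of migrating mesoderm, went from 8.86, 8.42 and 8.69 to 5.52, 6.80 and 4.12 (-3.18 ± 0.73, adjusted p = 0.013). Tcf15 rose (2.10 ± 0.26), a factor active both in epiblast cells that leave the naive state and in somites, and Eomes (0.87 ± 0.38, adjusted p = 0.135) was not called.

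In the Nodal and TGF-beta pathway 9 of 32 members rose and 11 fell (median -0.19), with 5 lower without control day8 replicate 1 and 6 without control day8 replicate 2 or BPA day8 replicate 3. Nodal itself, the ligand that patterns the epiblast, was named here after its values were seen. It read 5.72, 6.60 and 6.78 without and 8.26, 8.14 and 7.91 with BPA (1.74 ± 0.30, adjusted p = 0.00388, and 0.0862 with the mean of its probe sets). Tdgf1, its co-receptor (3.03 ± 0.31), Gdf3, a related ligand of ES cells (2.68 ± 0.37), and the feedback inhibitors Lefty1 (2.13 ± 0.27) and Lefty2 (2.49 ± 0.30) rose. All 4 BPA means stayed below the day 0 means. Tgfb2, a TGF-beta ligand of heart cushions and mesenchyme, went down, from 9.09, 9.32 and 8.10 to 6.24, 6.28 and 5.08 (-2.97 ± 0.48, adjusted p = 0.00283). The shared intracellular parts Smad4 (-0.15 ± 0.11) and the receptor Acvr1b (-0.14 ± 0.18) were not called.

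Germ cell and meiosis genes were higher for 26 of 37 members (median 1.71), and 16 of the 26 had a BPA mean above both control means. Dazl, an RNA-binding protein required for germ cell development, read 3.72, 4.49 and 4.24 on control day8 arrays and 6.76, 6.93 and 7.45 on BPA arrays, against a day 0 mean of 5.89 (2.90 ± 0.28, adjusted p = 0.000349). Mael, of the piRNA pathway that silences transposons, read 4.11, 4.96 and 4.69 without and 7.43, 7.53 and 7.40 with BPA, day 0 mean 6.62 (2.87 ± 0.24, adjusted p = 0.000229). For both genes the BPA arrays lay above every array of both control groups. Stra8, induced by retinoic acid at entry into meiosis (1.99 ± 0.31), and Hsf2bp, a protein of meiotic recombination with a control mean under the background (by at least 3.11 on the log2 scale), rose as well. Tdrd7, a Tudor protein of germ granules (-0.94 ± 0.32), was not called.

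Several germ cell genes were near or under the background level on control day8 arrays, so that only a lower bound of their change is known. Slc25a31, an ADP/ATP carrier of germ cells, had 2 of 3 control arrays under the background. It read -1.66, -1.001 and 3.46 without and 5.88, 5.39 and 5.51 with BPA, and was higher by at least 2.17 on the log2 scale (adjusted p = 0.00687, and 0.051 with only the 6 compared arrays in the fit). Tex11, an X-linked meiosis gene, was under the background on all 3 control arrays and at 4.65, 4.73 and 4.90 with BPA, at least 2.55-fold higher (adjusted p = 0.00389). Hormad1, of the meiotic chromosome axis, read -0.15, 3.62 and 2.51 without and 5.73, 5.38 and 5.75 with BPA, higher by at least 2.14 on the log2 scale (adjusted p = 0.0115, and 0.0547 with only the 6 compared arrays). On all BPA arrays these 3 genes lay above the background and above every control day8 array.

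Promoters of germ line genes are known for an E-box, CACGTG, and an E2F-type element, TCCCGC, through which repressor complexes keep them silent in other cells. RefSeq promoter windows (assembly GRCm38.p6, 250 bases before to 50 after the annotated start, both strands searched, the motifs not overlapping each other) were found for 22 of the 26 risen germ cell genes. Of the 22, 10 held CACGTG (45.5%), 14 held TCCCGC (63.6%) and 8 held both (36.4%). Among the 10 list members with a window that were not called, 4 held CACGTG, 4 TCCCGC and 2 both. The shares over the 10536 tested genes with a window were 11.5%, 39.4% and 4.49%, and over all 32851 RefSeq windows 7.15%, 20% and 1.99%. Shown are upstream stretches of 4 risen genes that hold CACGTG, in lower case with both motifs in capitals and read 5′ to 3′ on the strand of the gene. Ddx4, the RNA helicase that marks germ cells (1.81 ± 0.23, adjusted p = 0.000987), was chosen after its values were seen.
Slc25a31: cgcaactggaaaCACGTGttatggtcacat
Hormad1: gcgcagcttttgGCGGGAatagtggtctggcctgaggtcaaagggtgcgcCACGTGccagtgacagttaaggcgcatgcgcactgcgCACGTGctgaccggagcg
Mael: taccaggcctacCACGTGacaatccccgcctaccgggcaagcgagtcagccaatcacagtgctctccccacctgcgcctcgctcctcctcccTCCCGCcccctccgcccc
Ddx4: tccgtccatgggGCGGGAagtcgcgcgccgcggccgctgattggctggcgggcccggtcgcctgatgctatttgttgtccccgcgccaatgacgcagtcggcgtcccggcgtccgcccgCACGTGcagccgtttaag
The Slc25a31 stretch lies at chr3:40708766-40708795 (+ strand) and ends 76 bases before the start. That of Hormad1 lies at chr3:95559570-95559674 (+ strand), that of Mael at chr1:166238870-166238979 (- strand) and that of Ddx4 at chr13:112652322-112652458 (- strand). A match to a motif is a description of the letters, and no binding was measured.

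Large rises outside these groups included further germ line and ES cell genes. Mymx, a micropeptide of myoblast fusion, rose from 3.54, 5.04 and 5.71 to 9.06, 9.39 and 9.18 (4.45 ± 0.47, adjusted p = 0.000443), with a day 0 mean of 10.01. Morc1, which silences transposons in male germ cells (2.75 ± 0.25), Dmrt1, a factor of gonadal sex and spermatogonia (2.94 ± 0.33), and Rpl39l, a ribosomal protein variant of germ cells (2.90 ± 0.47), rose. Rpl39l is a close copy of a general ribosomal protein gene, so its probe set may read both. Zfp979, which is active in two-cell embryos and ES cells, belongs to a large family of zinc finger copies and read 4.76, 5.19 and 5.78 without and 8.57, 8.40 and 8.55 with BPA (3.26 ± 0.26).

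Heart development factors were lower for 11 of 22 genes (median -1.50), and for 7 without control day8 replicate 1 or 2. Hand2, a bHLH factor of the right ventricle and outflow tract, read 10.12, 9.88 and 9.53 on control day8 and 6.08, 5.67 and 3.61 on BPA arrays (-4.72 ± 0.73, adjusted p = 0.00229). Isl1, the marker of second heart field progenitors, read 8.54, 8.71 and 8.29 without and 6.44, 6.36 and 5.71 with BPA (-2.35 ± 0.47, adjusted p = 0.00727). Mef2c, a partner of both in cardiac gene activation, read 7.16, 7.36 and 6.26 without and 4.78, 4.32 and 4.08 with BPA (-2.53 ± 0.58, adjusted p = 0.0128). In each the BPA arrays lay below all control day8 arrays and above the day 0 mean. Gata6, a zinc finger factor of heart and endoderm (-1.94 ± 0.20), Nr2f2, of venous and atrial identity (-1.68 ± 0.29), and Hey2, of the ventricle (-1.44 ± 0.26), fell too. Gata4 (-0.52 ± 0.69) and Nkx2-5 (-0.40 ± 0.53), early cardiac factors with overlapping arrays, were not called, nor was Tbx20 (-2.85 ± 0.95, adjusted p = 0.0578).

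Genes of the cardiac sarcomere, the contractile unit of heart muscle, fell for 18 of 27 members (median -1.50), for 10 without control day8 replicate 1 and for 11 without control day8 replicate 2. Myl7, the atrial myosin light chain, dropped from 10.19, 10.54 and 10.003 to 6.98, 5.25 and 5.36 (-4.38 ± 0.88, adjusted p = 0.0073). Actc1, cardiac actin, went from 10.24, 10.93 and 9.97 to 7.39, 6.97 and 5.44 (-3.78 ± 0.86, adjusted p = 0.0126). The BPA arrays of both spread over more than 1 log2 unit but did not reach the control arrays. Myh6, the atrial myosin heavy chain, fell (-2.37 ± 0.44), and Ttn, the giant spring of the sarcomere, was lower by at least 3.33 on the log2 scale, with a BPA mean under the background. Tnnt1, the slow skeletal troponin T, was the member that rose (1.09 ± 0.24). Genes of cardiac excitation and energy supply did not follow as a set, with 3 of 17 lower (0 to 4 over the 24 alternatives) and 2 higher (1 to 4). Called members made up 29.4%, beside 22.2% of all genes. Pgam2, the muscle form of phosphoglycerate mutase, lay under the background on all BPA arrays and was at least 9.41-fold lower, while Cox7a1, a muscle subunit of cytochrome oxidase, rose (1.32 ± 0.22) and the gap junction gene Gja1 (-0.24 ± 0.18) was not called.

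Smooth muscle genes fell for 12 of 26 members (median -1.01), a count that was 5 without control day8 replicate 1, 7 without BPA day8 replicate 1 and 6 with only the compared arrays in the fit. Acta2, smooth muscle actin, read 11.87, 11.62 and 11.51 on control day8 and 9.30, 9.51 and 8.26 on BPA arrays (-2.65 ± 0.45, adjusted p = 0.00362), against a day 0 mean of 11.17. Rgs5, a pericyte marker, read 8.80, 8.85 and 8.33 without and 5.86, 6.05 and 4.51 with BPA (-3.19 ± 0.48, adjusted p = 0.00212). Neither gene overlapped between the groups, and the BPA mean of Acta2 lay below day 0 as well. Itga8, an integrin of smooth muscle and kidney mesenchyme (-2.39 ± 0.23), fell, whereas Cald1 (-0.50 ± 0.18), Vcl (-0.27 ± 0.18) and Cnn2 (-0.37 ± 0.14), of the general actin cytoskeleton, were not called.

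Muscle promoters are known for the CArG box, bound by serum response factor. It was searched, by this name, in the RefSeq windows of the sarcomere and smooth muscle lists. It was found in 5 of the 25 genes with a window that fell (20%) and in 7 of the 20 that did not fall (35.0%). Over the tested genes the share was 1.58%, and over all windows 1.63%. These stretches show the box, in capitals, in 3 of the genes that fell. Myl9, a smooth muscle myosin light chain (-1.19 ± 0.31, adjusted p = 0.0234), was chosen after its values were seen. Its adjusted p rose to 0.0588 when control day8 replicate 1 was left out, to 0.0777 when replicate 2 was, and to 0.0875 with only the 6 compared arrays, which ends the call.
Actc1: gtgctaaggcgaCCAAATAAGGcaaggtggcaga
Myl7: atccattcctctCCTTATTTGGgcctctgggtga
Myl9: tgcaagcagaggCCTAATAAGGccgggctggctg
They lie at chr2:114052901-114052934 (- strand) for Actc1, at chr11:5898822-5898855 (- strand) for Myl7 and at chr2:156775291-156775324 (+ strand) for Myl9, on the strand of each gene.

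Vascular endothelium genes were lower for 21 of 43 members (median -1.28). Kdr, the main receptor for vascular endothelial growth factor, read 7.66, 7.74 and 7.57 without and 5.11, 5.54 and 3.50 with BPA (-2.94 ± 0.44, adjusted p = 0.00203). Nrp1, its co-receptor, read 10.46, 10.22 and 10.28 without and 7.20, 7.86 and 6.33 with BPA (-3.19 ± 0.41, adjusted p = 0.00098). Emcn, a sialomucin of venous and capillary endothelium, was under the background on all BPA arrays and at 5.35, 5.59 and 5.23 on the control arrays, at least 3.95-fold lower (adjusted p = 0.00631). Not every endothelial gene was low: Cdh5, the junctional cadherin (-0.83 ± 0.50, adjusted p = 0.272), and Sox17, which also marks endoderm (-0.10 ± 0.25), were not called. Of the secreted factors that act on vessels and their pericytes, and their receptors, 13 of 29 fell and 3 rose (median -0.83). Angpt1, the ligand that stabilises vessels, was at least 6.42-fold lower, Angptl4 rose (1.55 ± 0.32), and Vegfa, the main vascular growth factor, was not called (-0.15 ± 0.34).

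Of the blood and erythroid genes, 3 of 20 were higher and 2 lower (1 to 6 lower over the 24 alternatives tried), or 25% called beside 22.2% of all genes. Hbb-bh1, an embryonic globin, read 9.87, 9.19 and 9.32 on the control day8 arrays and 5.74, 7.88 and -0.54 on the BPA arrays. The BPA arrays were all below the control arrays but far apart from each other, and the gene was not called (adjusted p = 0.108). Pf4, of platelets and their precursors, was at least 3.5-fold lower, whereas Myb, a factor of blood progenitors that is also expressed in ES cells, rose (2.16 ± 0.32). Gata2 was not called (0.21 ± 0.26). The mean over 5 red blood cell markers ran from 5.05 to 5.74 on control day8 arrays and from 1.29 to 3.91 on BPA arrays. Of the 5, 3 were tested and 0 called. Members of the blood list that the filter on dim probe sets left out were not tested and went both ways. Hbb-y, another embryonic globin, had means of 7.37 without and 3.21 with BPA, and Slc4a1, near the background, of 2.41 and 3.53.

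Postn, the gene with the largest fitted fall among those called, and other large falls belonged to the extracellular matrix of connective tissue. Fibrillar collagens, the rope-like collagens of mesenchyme, were lower for 6 of 9 genes (median -2.10), and all 6 had BPA means below both control means. Col3a1 read 11.73, 11.06 and 11.45 on control day8 and 7.03, 7.01 and 6.27 on BPA arrays (-4.64 ± 0.33, adjusted p = 0.000115), against a day 0 mean of 10.38. Col5a2, which sets the diameter of fibrils, read 9.27, 8.77 and 9.31 without and 4.53, 5.51 and 4.23 with BPA (-4.36 ± 0.39, adjusted p = 0.000278). Postn, a matricellular protein of heart valves and periosteum, read 11.44, 10.75 and 11.05 without and 5.85, 5.84 and 5.96 with BPA (-5.19 ± 0.32, adjusted p = 0.000111). The BPA arrays of these genes lay at least 3 log2 units below every control day8 array. Such a gap was in part set by their choice, since the largest falls were taken from genes without overlap. Lum, a proteoglycan that spaces collagen fibrils, dropped from 8.47, 7.49 and 8.77 to 3.95, 3.58 and 3.54 (-4.56 ± 0.30), close to the background level. Vcan, a large proteoglycan of heart cushions (-2.15 ± 0.32), and Dcn, decorin (at least 6.83-fold, its BPA mean under the background), fell with it. In all, 4 of 7 small leucine-rich and related proteoglycans fell. Of 36 matricellular and elastic fibre genes, 17 fell and 1 rose (median -1.18). Tgfbi, an adhesion protein induced by TGF-beta, was among them (-2.30 ± 0.45), while Sparc (-0.17 ± 0.19) and Ccn2 (0.30 ± 0.23) were not called.

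Enzymes that process collagen fell for 9 of 24 members (median -0.54). Loxl1, which crosslinks elastic fibres (-1.62 ± 0.23), Pcolce, the enhancer of procollagen C-proteinase (-1.65 ± 0.22), and Fkbp7, a prolyl isomerase of the endoplasmic reticulum (-1.78 ± 0.15), were lower. P4hb (-0.23 ± 0.14) and Ppib (-0.05 ± 0.13), general folding enzymes of the secretory pathway, were not called. Of the proteases and their inhibitors, 12 of 40 fell and 4 rose (median -0.11), or 40% called beside 22.2% of all genes. Over all genes, 12% rose. The number of proteases and inhibitors that rose was 2 without either of control day8 replicates 1 and 2 and with the mean of probe sets, and 0 to 2 without a BPA array. Adam12, a membrane metalloprotease, read 7.15, 7.10 and 7.05 without and 4.33, 4.38 and 4.16 with BPA (-2.81 ± 0.34), and Adamts1 (-2.13 ± 0.22) and Mmp2 (-1.74 ± 0.18), which cut matrix proteins, were lower. The secreted serine protease Htra1 was higher (0.57 ± 0.15), a call that ended without either of control day8 replicates 1 and 2 (adjusted p = 0.0637 and 0.0825) and without BPA day8 replicate 1 or 3 (0.0638 and 0.0786), and the lysosomal proteases Ctsl (0.06 ± 0.16) and Ctsb (0.27 ± 0.19) were not called.

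Basement membrane genes, made by the endoderm layer as well as by mesenchyme, were lower for 5 of 20 members and higher for 2 (median -0.13). The called share was 35%, beside 22.2% of all genes. The mean of the list ran from 7.51 to 7.81 on control day8 arrays and from 7.11 to 7.26 on BPA arrays. The lower count was 2 when control day8 replicate 1 was left out, and 3 when control day8 replicate 2, BPA day8 replicate 1, BPA day8 replicate 3 or the filter on dim probe sets was left out. Col4a1, the main collagen of basement membranes, read 11.50, 11.45 and 11.57 on control day8 and 11.97, 11.67 and 11.96 on BPA arrays (0.36 ± 0.19, adjusted p = 0.215), and Lamb1, a laminin chain, was at 0.48 ± 0.18 (adjusted p = 0.0825). Neither was called, although their BPA arrays lay above the control arrays. Col4a5, a chain of specialised basement membranes (-1.97 ± 0.34), and Col18a1, the precursor of endostatin (-0.85 ± 0.13), fell.

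Feeder fibroblasts also express connective tissue genes, so their markers are given beside the matrix. The mean over the 7 feeder markers measured ran from 8.16 to 8.63 at day 0. It ran from 4.67 to 5.17 on control day8 arrays and from 3.99 to 4.15 on BPA arrays. Of the 7, 6 were tested, while Fap, under the background on all control day8 and BPA arrays, was not. The 2 of them that were lower were Col1a1 (-2.46 ± 0.35) and Col1a2 (-2.10 ± 0.26), which mesenchyme expresses too. Thy1, a surface glycoprotein of fibroblasts, read 3.11, 1.73 and 4.06 without and 4.22, 4.35 and 0.05 with BPA (8.18 at day 0). S100a4 read 2.87, 3.81 and 2.60 without and 2.65, 2.85 and 3.92 with BPA (10.21 at day 0). Both lay near the background in both day 8 groups and were not called, and Timp1 (0.02 ± 0.16) was not called either. Of a broader list of 29 fibroblast genes, which shares members with the matrix lists, 17 fell (median -1.62). The mean of this list ran from 8.32 to 8.61 at day 0, from 7.06 to 7.08 on control day8 arrays and from 5.46 to 5.64 on BPA arrays. A BPA mean below day 0 in a connective tissue gene is therefore not read as a level below that of ES cells. What part feeder cells had in the matrix differences or in the day 0 levels was not tested.

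**Figure D3:**
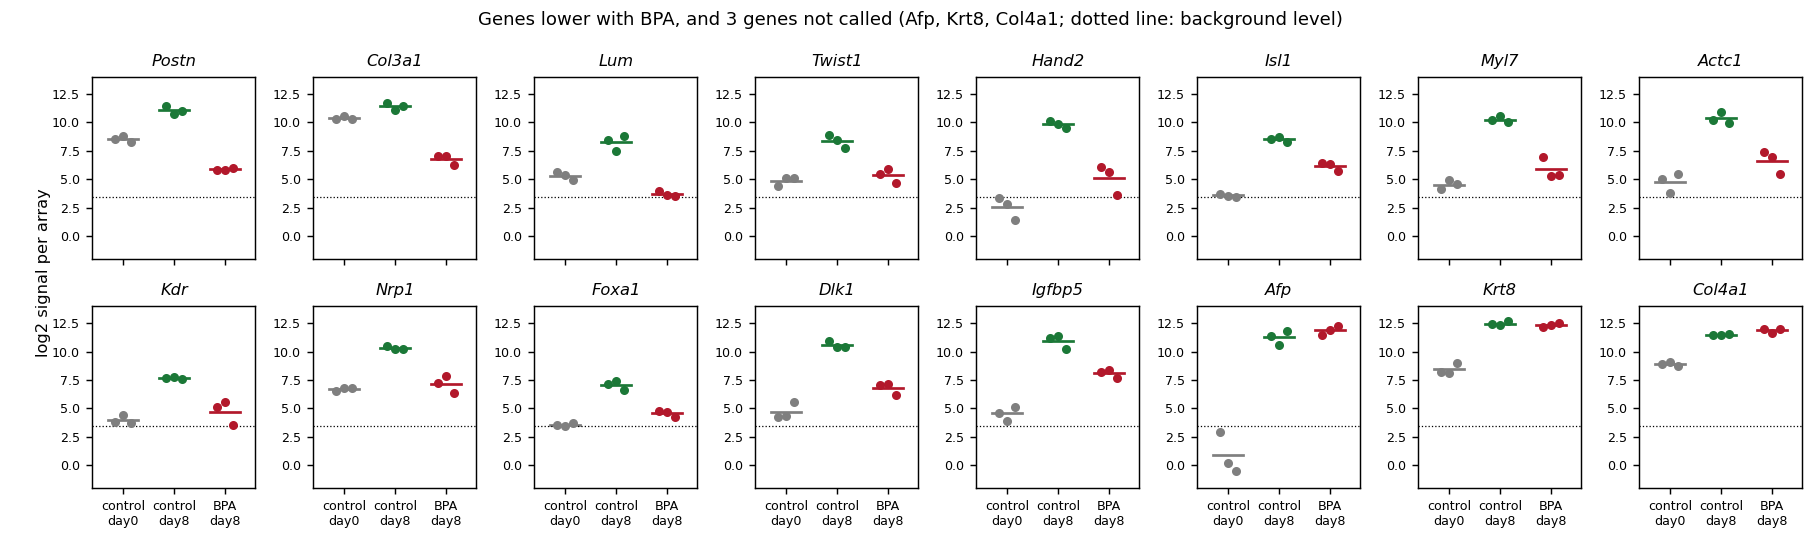
Log2 signal on each of 3 arrays a group (points, with the group mean as a bar) for 13 genes lower with BPA and for Afp, Krt8 and Col4a1, which were not called, at control day0 (grey), control day8 (green) and BPA day8 (red). With BPA, Postn, Col3a1 and Lum lie below both control groups, and the heart and vessel genes lie between them.

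Regulators and markers of mesenchyme fell for 19 of 33 members (median -1.65), 13 of them to BPA means below both control means. Twist1, a bHLH factor of mesenchyme and neural crest, read 8.88, 8.50 and 7.74 on control day8 and 5.43, 5.92 and 4.70 on BPA arrays (-3.02 ± 0.37, adjusted p = 0.000794). Snai2, a repressor of E-cadherin, read 10.23, 10.05 and 10.21 without and 7.40, 7.88 and 5.63 with BPA (-3.20 ± 0.66, adjusted p = 0.00827). Vim, the intermediate filament of mesenchyme, was lower on every BPA array (-1.19 ± 0.17). Of the epithelial genes 9 of 37 were higher (median 0.44), with all 9 BPA means above both control means. The called share was 24.3%, all of it higher, beside 22.2% of all genes called and 12% called higher. Cdh1, or E-cadherin, read 10.35, 10.46 and 10.19 without and 11.23, 11.28 and 11.35 with BPA (0.95 ± 0.09, adjusted p = 0.000332). Cldn4, a tight junction claudin, read 7.62, 7.77 and 7.62 without and 8.85, 8.96 and 9.08 with BPA (1.29 ± 0.12, adjusted p = 0.000311). The groups did not overlap for either. Keratins of simple epithelia, which mark the outer endoderm layer, were not called: Krt8 read 12.39, 12.34 and 12.68 without and 12.19, 12.31 and 12.50 with BPA (-0.14 ± 0.25), and Krt18 was at -0.08 ± 0.26. Cav1, a caveolin of mesenchymal and endothelial cells, fell (-2.24 ± 0.28), and Itga6, a laminin receptor of epithelia and stem cells, rose (0.93 ± 0.13).

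**Figure D4:**
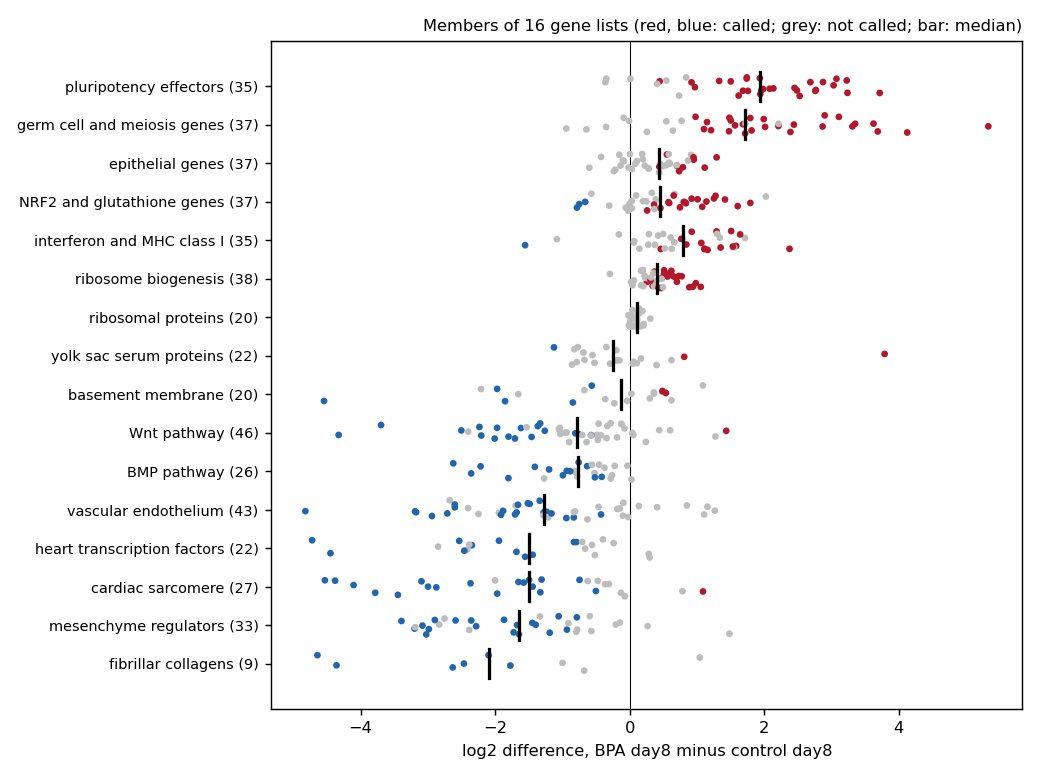
Log2 differences (BPA day8 minus control day8, horizontal axis) of the tested members of 16 gene lists, 1 point per gene, red or blue where called and grey where not, with the list median as a bar and the number tested in parentheses. Members of the pluripotency and germ cell lists lie mostly right of 0 and those of the mesenchyme, collagen and heart lists mostly left, while ribosomal proteins lie close to 0.

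Endoderm transcription factors fell for 6 of 16 members (median -0.63). Foxa1, a pioneer factor of endoderm, read 7.13, 7.41 and 6.63 on control day8 and 4.79, 4.69 and 4.19 on BPA arrays (-2.50 ± 0.38, adjusted p = 0.00209), and Hhex, of anterior endoderm and blood vessels, fell as well (-1.23 ± 0.22). The difference between this list and the other endoderm lists was not tested. Genes of visceral endoderm absorption had 4 of 27 higher (2 to 6 over the 24 alternatives, and 2 without either of control day8 replicates 1 and 2 or without a BPA array) and 2 lower. Parietal endoderm genes had 2 of 18 lower, and genes of definitive endoderm and gut had 3 of 18 lower (1 to 6) and 1 higher. The called shares of the visceral, parietal and definitive lists were 22.2%, 11.1% and 22.2%, no more than the 22.2% over all genes. Serum proteins secreted by yolk sac endoderm showed 2 of 22 higher (0 to 2 over the 24 alternatives) and 1 lower (1 to 3), or 13.6% called. Afp, the fetal albumin-like protein, read 11.34, 10.61 and 11.82 without and 11.45, 11.90 and 12.27 with BPA (0.62 ± 0.72, adjusted p = 0.59), and Ttr, the thyroid hormone carrier, was at -0.52 ± 0.25 (adjusted p = 0.164). Their arrays overlapped. Bmp2, a ligand made by visceral endoderm and mesoderm, fell (-2.22 ± 0.37). Among trophoblast genes 4 of 22 rose, 7 with a pseudocount of 32 and 2 without BPA day8 replicate 3. The called share of this list was 18.2%, all of it higher, beside 22.2% of all genes called and 12% called higher. Tfap2c, a factor shared by trophoblast and primordial germ cells, read 7.86, 8.10 and 7.88 without and 9.60, 9.46 and 9.80 with BPA (1.67 ± 0.23, adjusted p = 0.00131). Ctsj, a placental cathepsin, was higher by at least 2.77 on the log2 scale, with a control mean under the background, and Plac8 (0.44 ± 0.23) was not called.

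Neural genes gave mixed results. Stmn2, a microtubule regulator of growing axons that is also present in ES cells, read 6.68, 6.77 and 7.09 on control day8 and 8.80, 8.99 and 8.47 on BPA arrays (1.90 ± 0.22, adjusted p = 0.000653), and Ina, a neurofilament protein (1.81 ± 0.22), rose with it. Both had still higher day 0 means, of 10.73 and 8.22. Gap43, of growth cones, fell (-1.33 ± 0.25), and Nefl was not called (-0.03 ± 0.23), so that 5 of 20 neuronal and glial genes rose and 3 fell. The progenitor markers Sox1 (-0.93 ± 0.38), Pax6 (-0.72 ± 0.37) and Nes (-0.52 ± 0.23) were not called, while Zic5 rose (2.09 ± 0.25) and Irx5 fell (-2.49 ± 0.39). Hox genes and their cofactors fell for 3 of 20 members, and for 3 to 7 over the 24 alternatives (median -1.29): Hoxb2 (-1.86 ± 0.37), and the cofactors Pbx3 (-1.57 ± 0.21) and Meis2 (-1.33 ± 0.29). The share that fell was 15%, beside 10.2% of all genes. No member rose, so the called share was also 15%, beside 22.2% of all genes.

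Several signalling pathways that pattern mesoderm had more members lower than higher. In the BMP pathway 13 of 26 members fell (median -0.77). Among its ligands, Bmp5 read 7.90, 7.89 and 7.75 without and 5.55, 5.54 and 4.58 with BPA (-2.62 ± 0.55, adjusted p = 0.0088). Smad6, an inhibitor that BMP signals induce, read 9.16, 8.92 and 8.85 without and 7.42, 7.16 and 6.94 with BPA (-1.80 ± 0.38, adjusted p = 0.00881). The groups did not overlap for either gene. Acvr1, a type I receptor (-0.22 ± 0.18), and the target Id2 (-0.52 ± 0.23, adjusted p = 0.136) were not called. In the Wnt pathway 17 of 46 members fell and 1 rose (median -0.79). The noncanonical ligand Wnt5a read 7.92, 7.56 and 7.13 without and 4.70, 5.82 and 4.59 with BPA (-2.50 ± 0.47, adjusted p = 0.00567), and Dact1, an intracellular antagonist, fell (-2.23 ± 0.39). Ctnnb1, or beta-catenin (-0.08 ± 0.09), and the receptor Lgr4 (0.24 ± 0.11) were not called.

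Hedgehog pathway genes fell for 7 of 14 members (median -0.84). The co-receptors Gas1 (-2.03 ± 0.38) and Cdon (-1.18 ± 0.23) were lower, while Ptch1 (-0.39 ± 0.17) and Gli1 (-0.50 ± 0.29), the usual readouts of pathway activity, were not called. In the insulin-like growth factor axis 7 of 19 members fell and 1 rose (median -0.99), with 11 lower after a pseudocount of 32. Igfbp5, a binding protein, read 11.16, 11.38 and 10.24 on control day8 and 8.23, 8.36 and 7.65 on BPA arrays (-2.85 ± 0.57, adjusted p = 0.00694). Igfbp4 (-2.33 ± 0.27) and the receptor substrate Irs1 (-1.94 ± 0.31) fell, and the binding protein Igfbp3 did not pass (0.03 ± 0.15). In the FGF and ERK list 7 of 29 rose (4 with the mean of probe sets) and 4 fell. Its called share was 37.9%, beside 22.2% of all genes. Fgfrl1, a decoy receptor (-1.20 ± 0.18), and the inhibitor Spred1 (-0.64 ± 0.14) were lower, and the feedback genes Dusp6 (0.11 ± 0.21) and Spry2 (0.40 ± 0.19) were not called. In the Notch pathway 5 of 24 fell and 2 rose (median -0.31), and the number that fell was 3 without control day8 replicate 1 or 2, control day0 replicate 1 or a BPA array and 2 to 6 over all alternatives. Of this list 29.2% was called, beside 22.2% of all genes. Hey2, a target of the pathway, fell (-1.44 ± 0.26), and Rbpj, the DNA-binding factor of the pathway, rose (1.11 ± 0.10). In the retinoid pathway 3 of 17 fell and 2 rose, or 29.4% called beside 22.2% of all genes. The retinoic acid binding protein Crabp1 fell from 9.36, 9.20 and 9.14 to 7.83, 7.86 and 7.74 (-1.42 ± 0.14) and Crabp2 fell by 1.76 ± 0.36, while the receptor Rarg rose (0.97 ± 0.22). Among axon guidance genes, 11 of 35 were lower (median -0.72), but 5 without control day8 replicate 1 or 2 and 7 without BPA day8 replicate 1 or 3. The share that fell in the main fit was 31.4%, beside 10.2% of all genes. Epha3, an ephrin receptor of mesenchyme, was under the background on all BPA arrays and at 6.15, 5.73 and 5.85 without BPA, at least 5.67-fold lower.

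**Figure D5:**
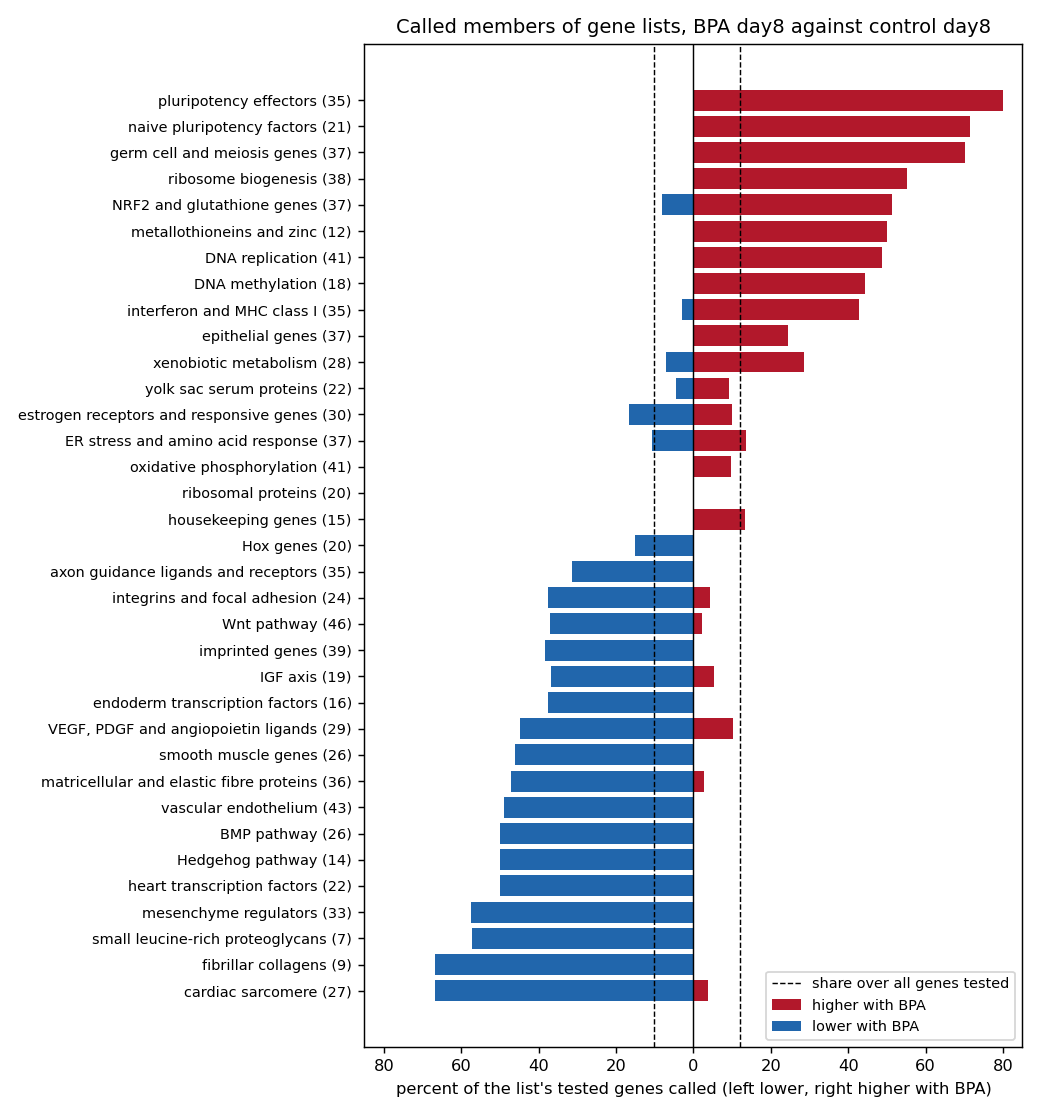
Percent of the tested members of 35 gene lists called higher (red, right) or lower (blue, left) with BPA, with the number tested in parentheses; dashed lines mark the shares over all genes tested, 12% higher and 10.2% lower. Pluripotency and germ cell lists reach furthest right, sarcomere and fibrillar collagen lists furthest left, and the serum protein and ER stress lists stay near or inside the lines.

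Imprinted genes, expressed from only 1 parental copy and often tied to fetal growth, were lower for 15 of 39 members (median -0.65). Plagl1, a zinc finger regulator within an imprinted growth network, read 12.57, 12.23 and 12.01 on control day8 and 9.58, 9.73 and 9.02 on BPA arrays (-2.82 ± 0.24, adjusted p = 0.000233). Dlk1, a Notch-like inhibitor of adipocyte differentiation, read 10.96, 10.41 and 10.40 without and 7.06, 7.11 and 6.19 with BPA (-3.80 ± 0.45, adjusted p = 0.000722). Asb4, a ubiquitin ligase adaptor of vessels and placenta, read 8.58, 8.24 and 7.85 without and 5.04, 4.33 and 4.02 with BPA (-3.76 ± 0.57, adjusted p = 0.00212). The BPA arrays of all of these lay between day 0 and control day 8 and overlapped neither the one nor the other. Igf2, the fetal growth factor (-1.05 ± 0.35, adjusted p = 0.0568), and Phlda2 (-0.02 ± 0.17) were not called.

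DNA methylation genes were higher for 8 of 18 members (median 0.42). Dnmt3l, the cofactor of the de novo methyltransferases, read 5.19, 6.65 and 6.79 without and 9.24, 9.001 and 9.14 with BPA (2.92 ± 0.39, adjusted p = 0.00113), and its BPA mean lay above the day 0 mean of 8.67. Tet1, which oxidises methylcytosine (1.62 ± 0.22), and the methyltransferase Dnmt3b (1.46 ± 0.14) rose, and the maintenance enzyme Dnmt1 was not called (0.08 ± 0.16). Chromatin modifiers went both ways, 16 of 50 higher and 9 lower (median 0.06). Phc1, a Polycomb subunit of ES cells, was higher on each BPA array (1.62 ± 0.12). The remodelling ATPases Smarca1 (-1.81 ± 0.17) and Smarca2 (-1.01 ± 0.11) and Smarcd3, the heart and muscle subunit of the BAF complex (-2.20 ± 0.46), fell. Ezh2 (0.15 ± 0.09) and Hdac2 (-0.25 ± 0.11) were not called.

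DNA replication genes were higher for 20 of 41 members (median 0.37), and for 9 with only the compared arrays in the fit. Rfc5, of the clamp loader (0.72 ± 0.12), and Gins1, of the replicative helicase (0.76 ± 0.14), were higher, and Pcna (-0.06 ± 0.12) and Mcm4 (0.17 ± 0.11) were not called. Ribosome biogenesis genes rose for 21 of 38 members (median 0.41). That count was 10 without control day8 replicate 1, 11 without BPA day8 replicate 1, 12 without BPA day8 replicate 2 and 12 with the mean of probe sets. Dkc1, the pseudouridine synthase of ribosomal and telomerase RNA, read 10.02, 10.12 and 10.12 without and 11.02, 11.34 and 11.06 with BPA (1.06 ± 0.11, adjusted p = 0.000381), and Nop58 was not called (0.02 ± 0.12). Of 20 ribosomal proteins limma called 0, and 1 had an unadjusted p under 0.05. Of the cell cycle genes 6 of 46 rose and 2 fell, 17.4% called beside 22.2% of all genes, with 3 to 12 higher over the alternatives and 3 without control day8 replicate 1 or BPA day8 replicate 2. Mybl2, a factor of cell cycle genes (1.86 ± 0.17), rose, and Ccnd2, a cyclin of G1, fell (-1.70 ± 0.22). In glycolysis and hypoxia 6 of 32 rose (3 without control day8 replicate 1, BPA day8 replicate 1 or 2, or with no filter) and 3 fell. The called share of this list was 28.1%, beside 22.2% of all genes. The lactate dehydrogenase Ldhb (1.30 ± 0.19) and the kinase Pdk1 (0.76 ± 0.09) rose, the muscle enolase Eno3 fell (-1.38 ± 0.27), and Ldha (-0.13 ± 0.09) and Pgk1 (-0.08 ± 0.12) were not called.

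Genes of NRF2, a transcription factor of the response to oxidative and electrophilic stress, and of glutathione were higher for 19 of 37 members and lower for 3 (median 0.46). Gsta4, a glutathione transferase, read 9.02, 9.18 and 9.59 on control day8 and 10.92, 10.84 and 10.84 on BPA arrays (1.60 ± 0.14, adjusted p = 0.000265), with a day 0 mean of 11.50. Srxn1, a sulfiredoxin regulated by NRF2 (1.28 ± 0.18), and Gstt2 (1.42 ± 0.17) rose, Gpx3 (-0.75 ± 0.14) and Gpx7 (-0.79 ± 0.16) fell, and Sod1 (0.03 ± 0.12) and Fth1 (0.33 ± 0.14) were not called. The metallothionein Mt2, which binds zinc and other metals, read 11.53, 11.40 and 12.01 without and 12.96, 12.96 and 13.07 with BPA (1.35 ± 0.16, adjusted p = 0.000702), above its day 0 mean of 12.58. Metallothionein and zinc genes rose for 6 of 12 members, and for 3 with only the compared arrays. Of the xenobiotic metabolism genes 8 of 28 rose and 2 fell, or 35.7% called beside 22.2% of all genes. The number of them that rose was 5 without BPA day8 replicate 2 or 3 and 4 with only the compared arrays. Cbr3, a carbonyl reductase, read 4.94, 5.43 and 5.98 without and 9.06, 8.80 and 8.41 with BPA (3.31 ± 0.28, adjusted p = 0.000233), near its day 0 mean of 8.79, and the drug efflux pump Abcb1a rose (1.87 ± 0.18).

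The aryl hydrocarbon receptor is the sensor of planar aromatic chemicals. Cyp1a1, its classic target, read 4.45, 4.77 and 4.75 without and 4.27, 4.17 and 3.57 with BPA (-0.65 ± 0.33, adjusted p = 0.201), and Tiparp, another target, fell (-0.61 ± 0.10). Among estrogen receptors and estrogen-responsive genes 3 of 30 rose and 5 fell, 26.7% called beside 22.2% of all genes. The lower count was 3 with no filter, with only the compared arrays, or without any 1 control day8 array, BPA day8 replicate 3 or NP day8 replicate 2 or 3. Esr1, the estrogen receptor alpha, read 1.50, 3.25 and 2.39 without and 2.33, 2.78 and 4.26 with BPA, mostly under the background. Greb1, an estrogen-induced gene of breast cells, read 7.83, 8.03 and 7.76 without and 6.31, 6.49 and 5.24 with BPA (-1.86 ± 0.35, adjusted p = 0.00569), and Cxcl12 fell (-1.98 ± 0.28). The coactivator Ncoa3 rose (0.92 ± 0.16), and Ccnd1 (-0.17 ± 0.17) and Xbp1 (0.24 ± 0.13) were not called.

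Of the heat shock and chaperone genes 8 of 26 rose and 3 fell (median 0.25), or 42.3% called beside 22.2% of all genes. The number that rose was 5 without control day8 replicate 1 or 2, without BPA day8 replicate 3, with no filter and with quantile normalization, 4 with only the compared arrays and 2 with the mean of probe sets. Hspb1, a small heat shock protein, read 10.05, 9.90 and 10.70 on control day8 and 11.64, 11.51 and 11.74 on BPA arrays (1.41 ± 0.19, adjusted p = 0.0011), Dnajb4 fell (-1.61 ± 0.25), and the constitutive chaperone Hspa8 (0.08 ± 0.10) was not called. In the endoplasmic reticulum stress list 5 of 37 rose and 4 fell, 24.3% called beside 22.2% of all genes, and between 1 and 8 rose over the 24 alternatives, with 1 without control day8 replicate 1. Asns, asparagine synthetase, rose (0.79 ± 0.09) and Herpud1 fell (-0.86 ± 0.11). The chaperone Hspa5, the standard readout of that stress, read 12.12, 12.12 and 12.24 without and 12.16, 12.18 and 12.09 with BPA (-0.01 ± 0.08). Genes of p53 and apoptosis were higher for 9 of 30 members and lower for 2, or 36.7% called beside 22.2% of all genes. Pmaip1, or Noxa (0.84 ± 0.18), and Trp53inp1 (0.88 ± 0.16) rose, and the p53 targets Cdkn1a (-0.32 ± 0.11, adjusted p = 0.0752) and Ccng1 (-0.03 ± 0.12) were not called.

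Interferon and MHC class I genes were higher for 15 of 35 members and lower for 1 (median 0.78), and 11 of the 15 had BPA means above both control means. Psmb8, a subunit of the immunoproteasome, read 3.94, 2.48 and 3.83 without and 6.03, 5.98 and 5.38 with BPA, higher by at least 2.07 on the log2 scale (adjusted p = 0.00483). Ifitm3, a membrane protein of interferon response and of early germ cells, read 8.34, 8.24 and 8.79 without and 9.95, 10.04 and 10.12 with BPA (1.58 ± 0.15, adjusted p = 0.000344), below its day 0 mean of 10.63. Ifit2 was the member that fell (-1.56 ± 0.31). The antigen-presenting genes B2m (-0.16 ± 0.13) and H2-K1 (0.37 ± 0.14, adjusted p = 0.0876) were not called.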

How the data were processed

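Total RNA from 12 samples was hybridised to 1-colour Affymetrix mouse expression arrays, 3 for each of 4 groups. The deposited values are log2 signals made by the authors. MAS5 is named, without a version, in the submitters' processing notes. Back-transformed, the trimmed mean of each array (2% at each end) was 100.0.

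Of 45101 probe sets, 34958 have 1 gene in the platform table, 932 several and 9211 are not listed there. The brightest 60% by mean signal (27023) were kept, and each gene was read by its brightest one, giving 13067 genes. Group means were fitted in limma 3.58.1 (R 4.3.3) on all 12 arrays, with Benjamini-Hochberg adjusted p under 0.05. In simulated data for this comparison (13067 genes), 53% of 100 genes shifted by 1 and 77% of 100 shifted by 2 (log2) were called, with 5 false calls. Far fewer genes were shifted there than the 2906 called in the data, and the adjusted threshold depends on that number. These shares thus do not measure the sensitivity of the comparison itself. Precision is limited by the 3 arrays a group.

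The gene lists and the comparison were chosen with earlier results of these data known. Named are the 30 largest rises and falls, up to 4 called members a direction and 3 uncalled bright members per list, and fixed markers, unless said otherwise. The largest rises and falls were taken only from called genes whose groups did not overlap. Their higher group also had a mean at or above the median gene mean. Promoter windows are those of RefSeq (GRCm38.p6), whose symbols matched 13018 genes. Alternatives covered the pseudocount, filter, normalization, probe set rule, model, samples and replicate block. Figures used matplotlib 3.10.9 (Python 3.11.15).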

Additional observations from a re-analysis of the deposited data

How the results depend on the processing

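With 2906 genes called (1569 higher, 1337 lower), changes of the pseudocount, filter, normalization, probe set rule, variance model and samples in the fit gave between 2157 and 3786 calls. Asking for at least 2-fold left 1199 (602 higher, 597 lower). Leaving out 1 array at a time gave 1822 to 2949 calls (1033 to 1692 higher, 789 to 1353 lower), the fewest without control day8 replicate 1. With no filter on dim probe sets there were 2251, and with quantile normalization or median centring the share of calls that were higher went from 54.0% to 57.4% or 60.3%. Replicate numbers did not pair the arrays: the deviations of same-numbered control day8 and BPA day8 arrays correlated at -0.0028, 0.013 and 0.078, and with the replicate block 2646 genes were called (1436 higher, 1210 lower). Of the 165 called genes named, 160 kept direction and call under each alternative that tested them, and 20 of the 71 uncalled genes named were called under some alternative. Values near the background level of 3.41 limit what small changes can be seen there.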

Other observations

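Some of the largest changes lay in genes outside the lists. Adgra2, an adhesion receptor needed for vessel growth into the brain, read 8.84, 8.39 and 8.16 on control day8 arrays and 5.40, 5.67 and 4.98 on BPA arrays (-3.11 ± 0.25, adjusted p = 0.000229 by limma). Spon1, a secreted matrix protein of the neural floor plate, read 7.80, 7.72 and 7.35 without and 4.26, 4.38 and 2.84 with BPA (-3.80 ± 0.35, adjusted p = 0.000308). Rbms3, an RNA-binding protein of mesenchyme, read 8.997, 8.89 and 8.24 without and 5.67, 6.004 and 4.12 with BPA (-3.44 ± 0.49, adjusted p = 0.00151). In each of the 3 genes BPA day8 replicate 3 was the lowest array. The groups do not overlap in these genes because the choice of the largest changes required it. In the other direction, Pla2g10, a secreted phospholipase, read 4.78, 4.81 and 5.16 without and 7.77, 7.38 and 7.27 with BPA (2.56 ± 0.17, adjusted p = 0.000111), around its day 0 mean of 7.38. Dppa4, the partner of Dppa2 in chromatin, read 6.36, 7.10 and 7.61 without and 9.82, 9.84 and 9.71 with BPA (2.77 ± 0.28, adjusted p = 0.000369). For both the BPA arrays lay within 1 log2 unit of each other.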
